A study of Mus musculus with 8 samples.

Results

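The genes of the ionotropic transmitter receptors are those whose mouse symbols name a subunit of an AMPA (Gria), NMDA (Grin), kainate (Grik), GABA-A (Gabr), glycine (Glr) or nicotinic acetylcholine (Chrn) receptor. The choice was made by symbol alone, and 56 of the 23278 genes in the deposited tables matched. RNA was sequenced from laser-captured tissue of lumbar cord, taken from mice of strain FVB/N on postnatal day 1. There were 4 groups of 2 libraries each: SMA motor neurons, WT motor neurons, SMA white matter and WT white matter. SMA mice carry the genotype labelled SMN2+/+;SMNΔ7+/+;Smn-/-, that is, no functional mouse Smn gene and homozygous human SMN2 and SMNΔ7 transgenes, and model spinal muscular atrophy, a loss of spinal motor neurons caused by too little SMN protein. Motor neurons were cut from the ventral horn of stained sections, so each capture can hold pieces of neighbouring cells, and white matter holds glia and axons. The labels do not say which or how many animals each library came from. Each p-value therefore speaks of the spread between libraries and not of a known number of animals.

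Ionotropic receptors are ion channels that open when a transmitter binds, and each is built from several subunits whose mix sets its conductance, kinetics and drug binding. AMPA, NMDA and kainate receptors carry fast excitation by glutamate, GABA-A and glycine receptors open chloride channels, and nicotinic receptors respond to acetylcholine. Spinal motor neurons receive all of these inputs, and in rodents several subunits are exchanged around birth, such as the fetal glycine receptor subunit encoded by Glra2, which gives way to Glra1.

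The start regions of 3 of these genes are printed. Grin1 was the member with the highest level in motor neurons. Chrne was near 0 in SMA motor neurons but had 1.25 and 1.96 RPKM in WT ones, so it is not the lowest member. Gria2 holds a match to a silencer motif. The printed stretches are the 250 bases before the start of transcription in RefSeq (build GRCm38.p6), all on the minus strand. They lie at chr2:25319188-25319437 for Grin1, chr11:70619195-70619444 for Chrne and chr3:80802836-80803085 for Gria2. Capitals mark every CG dinucleotide in Grin1 and Chrne, and the best RE1 match in Gria2.
Grin1: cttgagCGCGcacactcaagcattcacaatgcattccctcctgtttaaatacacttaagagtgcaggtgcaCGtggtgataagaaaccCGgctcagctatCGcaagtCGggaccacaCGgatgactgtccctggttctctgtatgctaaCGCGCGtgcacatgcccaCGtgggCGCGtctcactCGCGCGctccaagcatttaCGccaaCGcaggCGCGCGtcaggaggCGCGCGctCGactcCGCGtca
Chrne: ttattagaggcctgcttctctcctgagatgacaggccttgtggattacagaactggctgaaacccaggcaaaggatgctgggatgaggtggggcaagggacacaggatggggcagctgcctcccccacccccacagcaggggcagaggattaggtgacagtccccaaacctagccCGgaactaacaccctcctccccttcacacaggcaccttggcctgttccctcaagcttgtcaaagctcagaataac
Gria2: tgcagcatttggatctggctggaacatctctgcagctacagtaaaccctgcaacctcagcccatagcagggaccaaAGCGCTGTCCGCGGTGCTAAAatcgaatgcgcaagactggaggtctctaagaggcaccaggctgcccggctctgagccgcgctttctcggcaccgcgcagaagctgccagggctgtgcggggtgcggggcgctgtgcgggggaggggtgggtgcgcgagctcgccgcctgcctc
The Grin1 stretch holds 27 CG dinucleotides and the Chrne stretch 1. Over the RefSeq window of 250 bases before to 50 after the start, Grin1 has 33 and Chrne 1; of the 32851 windows in the RefSeq table, 8.56% hold at least as many as Grin1 and 94.6% at least as many as Chrne. A window was found for 41 of the 56 genes. A gene with several windows was given the highest of their counts, such as Chrna5 with 5 and 25, whereas all windows were counted singly. The median was 17 CG dinucleotides among the 27 of these that passed the filter on low values described below and 3.5 among the 14 that did not, beside 7 over all windows. Only Chrne, Gabra3 and Gabrg1 of the 27 lay under 7, against 9 of the 14. RE1 is the element bound by REST, which silences neuronal genes outside neurons; its consensus was searched on both strands with up to 4 mismatches. Gria2 was the only member with a match, 174 to 154 bases before its start on the strand opposite the gene, with 3 mismatches, and 22 of all 32851 windows (0.0670%) had one. The GC box GGGCGG, searched on both strands, was in 21 of the 46 windows of these genes (45.7%) and in 35.7% of all windows.

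Expression is given in RPKM as the authors deposited it, a read count divided by gene length and by the library's read total. These totals, recovered from the steps between low values, were 77500000 to 103000000 per library, and 11539 to 12796 genes reached 1 RPKM. Smn1 was listed at 0 in all 4 SMA libraries and stood at 6.82 and 2.93 RPKM in WT motor neurons and at 5.30 and 14.3 RPKM in WT white matter. The 10 motor neuron markers (such as Chat, Isl1 and Prph) summed to 570.4 and 586 RPKM in SMA motor neurons and 708 and 730.1 in WT ones, with 20.5 and 10.9 in SMA white matter and 11.6 and 7.98 in WT white matter. The 10 markers of myelinating oligodendrocytes summed to 135 and 90.4 RPKM, 79.0 and 50.8, 5045 and 2713 and 3994 and 2091 in the same order of groups. Both tissues therefore carried their own markers at levels well above those in the other. Xist, expressed from the inactive X chromosome, was at 12.6 to 37.0 RPKM in all 4 libraries numbered 1. In those numbered 2 it was at no more than 0.0581 RPKM. The 2 libraries of each group are therefore not repeats of the same material. This split does not run with genotype or tissue, but the spread within each group and every comparison of replicates 1 and 2 include it. In such bulk libraries, fewer cells of a type and less RNA per cell cannot be told apart.

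Of the 56 genes, 38 had at least 1 RPKM in at least 2 of the 8 libraries and were tested. All 4 AMPA and all 5 kainate genes were among them, with 5 of 7 NMDA, 12 of 19 GABA-A, 4 of 5 glycine and 8 of 16 nicotinic genes. The 18 below this filter were Grin2c and Grin3b; Gabra6, Gabrd, Gabre, Gabrp and the retinal type subunit genes Gabrr1, Gabrr2 and Gabrr3; Glra4; and Chrna1, Chrna6, Chrna9, Chrna10, Chrnb1, Chrnb3, Chrnd and Chrng. Chrna6, Chrna9, Chrnb3 and Gabrp were listed at 0 in every library. Several low genes had reads in 1 library of a pair and none in the other. Gabrd had 0 and 124 reads in SMA motor neurons and Gabrr1 had 0 and 169, and Gabrr2 had 107 and 0 in SMA white matter. Among the 17408 genes whose reads were recovered, 222 had at least 100 reads in 1 SMA motor neuron library and 0 in the other, beside 83 in WT motor neurons, 100 in SMA white matter and 52 in WT white matter. Over all these genes such disagreement was thus more frequent in SMA motor neurons than in the other 3 groups. Of 49 receptor genes with recovered reads, 2 split in this way in SMA motor neurons, 2 in SMA white matter and 0 in either WT group. No value of the 18 genes exceeded 1.14 RPKM. Over all 56 genes the summed RPKM was 935 and 643 in SMA motor neurons and 942 and 859.8 in WT ones, and 278 and 256 in SMA white matter and 211 and 219.7 in WT white matter.

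**Figure D1:**
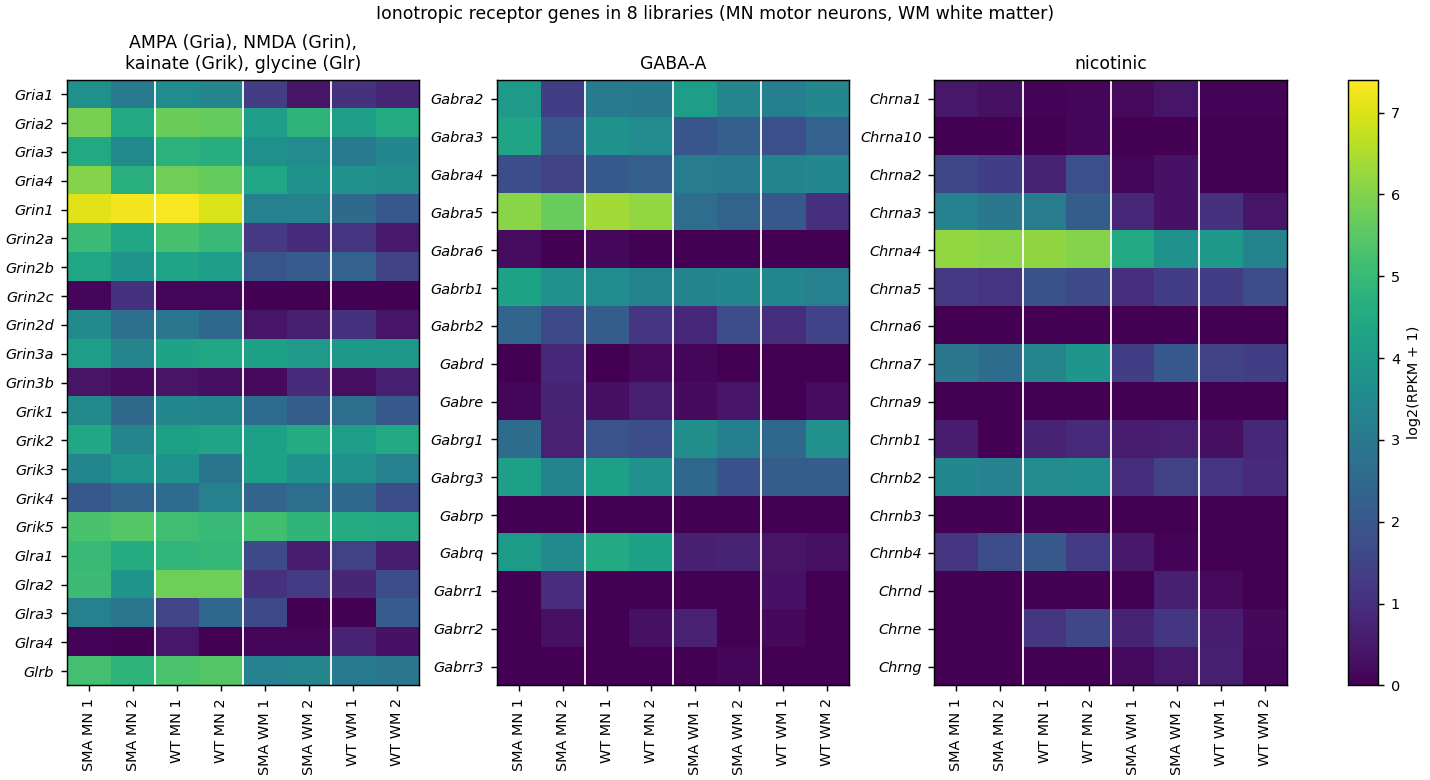
Level of 53 receptor genes as log2(RPKM + 1), colour scale from 0 upward, in the 8 libraries (columns; SMA before WT, motor neurons before white matter; white lines divide the groups). Grin1, Gabra5, Chrna4, Gria2, Gria4 and Glra2 are among the brightest rows in motor neurons, Grin3a, Grik2 and Grik5 are similar in both tissues, and 18 genes stay near 0.

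Many receptor genes were higher in motor neurons than in white matter. In SMA mice 18 of the 38 tested genes were higher in motor neurons and 1 (Gabra4) was lower by limma at a Benjamini-Hochberg adjusted p under 0.05. Over all 13948 genes tested, 30.8% were called in this comparison, 13.6% higher and 17.2% lower in motor neurons. The median log2 difference was 1.20 for the receptor genes and -0.24 for all genes. In WT mice 22 of the 38 were higher in motor neurons, Gabra4 was lower and 15 were not called, where 28.4% of all genes were called, 18.6% higher and 9.85% lower. The medians there were 1.65 for the receptor genes and 0.079 for all genes. The filter keeps a gene that is high in either tissue, and the 18 genes below it are outside these counts. Of the genes called higher, 17 were shared by the genotypes, among them Gria1, Gria4, Grin1, Grin2a, Grin2b, Grin2d, Gabra5, Gabrg3, Gabrq, Glra1, Glra2, Glrb, Chrna2, Chrna3, Chrna4 and Chrnb2. Glra3 passed in SMA alone, Gria2, Gria3, Chrna7 and Chrnb4 were among the genes that passed in WT alone, and none of these differences between genotypes passed its own test. In SMA, 23 of the 38 genes had both motor neuron libraries above both white matter libraries and 3 below, where 26.7% and 37.2% of all genes did; in WT the counts were 29 and 3, where 39% and 31% of all genes did.

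The split of all calls into higher and lower depends on scaling. Of all genes called in SMA, 44.2% were higher in motor neurons as deposited, 52.6% after scaling by median of ratios and 51.7% when quantiles were made equal, so the majority turned from lower to higher. Of those called in WT, 65.4% were higher as deposited and 54.7% and 51.7% after these scalings. Median-of-ratios scaling moved the median of all genes to -0.091 in SMA and -0.067 in WT and left those of the receptor genes at 1.23 and 1.54. Under these 2 scalings 21 receptor genes were higher in SMA motor neurons, 22 and 23 were higher in WT ones, and 1 was lower in each case. In SMA the receptor median was 0.76 without SMA motor neuron replicate 1, beside -0.40 for all genes, with 16 genes called higher and 4 lower, and 1.80 without SMA motor neuron replicate 2, beside -0.027, with 22 higher and 1 lower. The WT count fell to 14 higher and 0 lower without WT motor neuron replicate 1 and to 15 higher and 0 lower without WT white matter replicate 2. Of the 19 calls in SMA, 14 were made again under all 15 alternatives, and of the 23 in WT, 13.

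**Figure D2:**
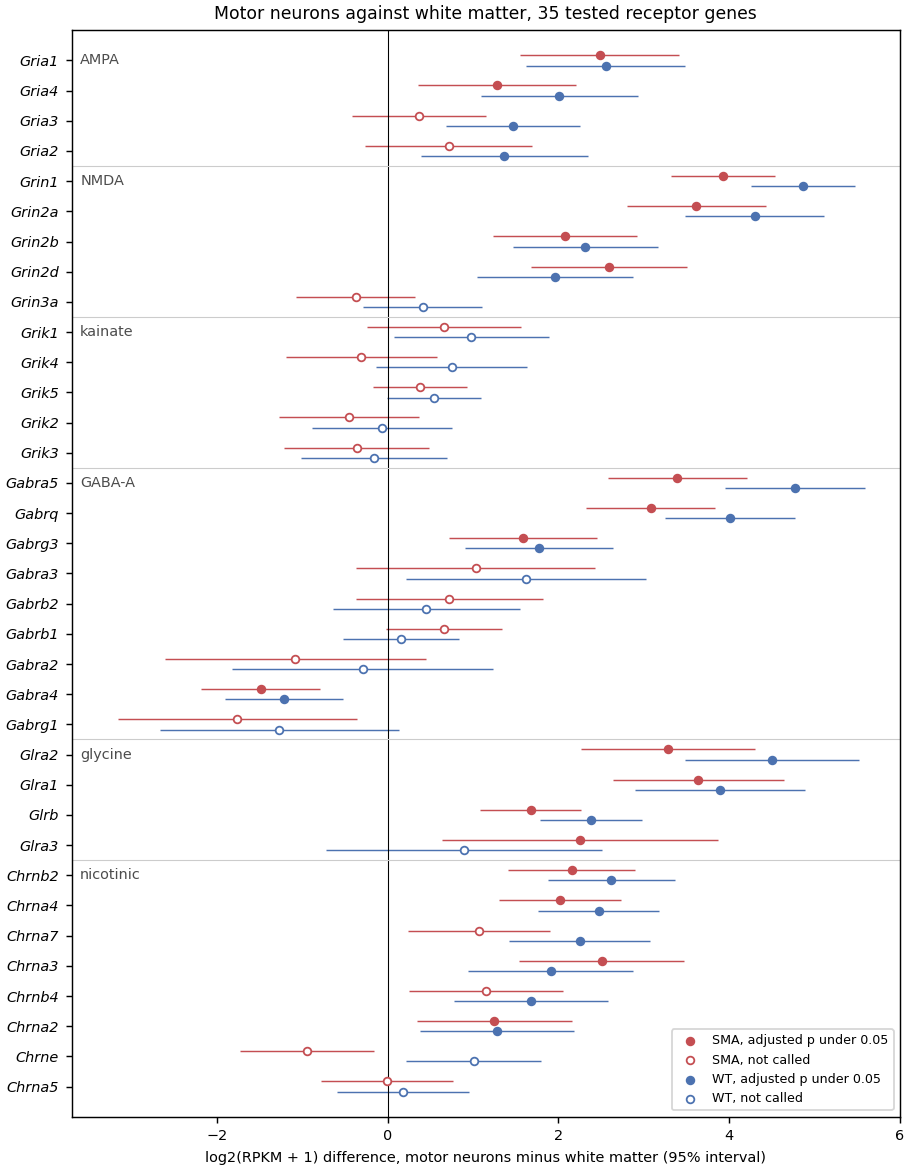
Difference in log2(RPKM + 1), motor neurons minus white matter, for 35 tested receptor genes grouped by family, in SMA (red) and WT (blue). Points are limma estimates with 95% intervals from 2 libraries a group; filled points have an adjusted p under 0.05. NMDA, GABA-A and glycine genes reach differences above 3, kainate genes lie between -0.46 and 0.98 and Gabra4 is the filled gene left of 0.

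The AMPA receptor carries most fast excitation, and the subunit encoded by Gria2 makes it nearly impermeable to calcium once its RNA is edited. Gria4 had 63.7 and 24.5 RPKM in motor neurons of SMA mice and 54.3 and 48.9 in those of WT mice. White matter Gria4 stood at 19.5 and 12.6 RPKM in SMA and 12.5 and 11.6 RPKM in WT mice. Both motor neuron pairs lay above both white matter pairs. Gria2 stood at 58.3 and 21.4 RPKM in motor neurons of SMA mice and 52.8 and 49.6 in those of WT mice. White matter Gria2 stood at 16.5 and 27.2 RPKM in SMA and 16.5 and 22.4 RPKM in WT mice. Both were the leading AMPA genes of motor neurons at nearly equal levels, and in SMA replicate 2 both were lower than in any other motor neuron library, Gria2 falling inside the range of SMA white matter. The difference between tissues was 1.28 ± 0.41 (log2 ± SE, adjusted p = 0.0408, limma with Benjamini-Hochberg adjustment) in SMA for Gria4 and 0.72 ± 0.44 (adjusted p = 0.238) for Gria2, which was not called. In WT it was 2.01 ± 0.41 (adjusted p = 0.00570) for Gria4 and 1.36 ± 0.44 (adjusted p = 0.0422) for Gria2. Gria1, the subunit that is often delivered to synapses during plasticity, had 12.1 and 7.20 RPKM in motor neurons of SMA mice and 11 and 9.36 in those of WT mice. White matter Gria1 stood at 1.56 and 0.343 RPKM in SMA and 1.09 and 0.721 RPKM in WT mice. Its lowest motor neuron library lay above its highest white matter library. Its difference was 2.48 ± 0.41 in SMA (limma adjusted p = 0.00226) and 2.56 ± 0.41 in WT (adjusted p = 0.00171). Gria3, on the X chromosome, had 21.4 and 10.6 RPKM in motor neurons of SMA mice and 25.7 and 23.6 in those of WT mice. White matter Gria3 stood at 12 and 10.9 RPKM in SMA and 7.06 and 9.66 RPKM in WT mice. It was not called in SMA (0.37 ± 0.35, limma adjusted p = 0.448), where the 2 tissues overlap through motor neuron replicate 2, and was called in WT (1.47 ± 0.35, adjusted p = 0.0122). The SMA call of Gria4 was made again under only 6 of 15 alternatives and was lost with no filter on low values, in a fit of only the 4 libraries compared and without any single library other than SMA motor neuron replicate 2 (adjusted p up to 0.218). In WT, Gria4 lost its call without WT motor neuron replicate 1 (adjusted p = 0.0502), Gria3 lost it without either WT motor neuron library or WT white matter replicate 1 (up to 0.0861), and Gria2 lost it without any of the 4 WT libraries or either SMA white matter library, with quantiles made equal or with no filter on low values (up to 0.190).

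The NMDA receptor needs the Grin1 subunit, which binds glycine, together with a glutamate-binding subunit encoded by Grin2a to Grin2d or a Grin3 subunit. Grin1 had 134 and 155 RPKM in motor neurons of SMA mice and 161 and 126 in those of WT mice. White matter Grin1 stood at 8.47 and 8.59 RPKM in SMA and 4.86 and 3.13 RPKM in WT mice. Every motor neuron library was far above every white matter library, and the WT and SMA motor neuron ranges overlap. The difference was 3.93 ± 0.27 in SMA (limma adjusted p = 4.47e-05) and 4.87 ± 0.27 in WT (adjusted p = 1.06e-05), the biggest of the 38 in both genotypes. An antisense gene, Grin1os, overlaps Grin1 in the reference annotation, and since the sources used here do not state the use of strand, its reads cannot be told apart from those of Grin1.

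Among the glutamate-binding subunits, Grin2a, which gives fast channels, had 31.7 and 19.2 RPKM in motor neurons of SMA mice and 37.2 and 30.7 in those of WT mice. White matter Grin2a stood at 1.33 and 0.892 RPKM in SMA and 1.15 and 0.461 RPKM in WT mice. It was the highest of the 4 in every motor neuron library. Grin2b, the slower subunit of immature synapses, had 19.7 and 13.2 RPKM in motor neurons of SMA mice and 19.1 and 16.2 in those of WT mice. White matter Grin2b stood at 2.76 and 3.42 RPKM in SMA and 4.06 and 1.76 RPKM in WT mice. All 4 white matter libraries held more Grin2b than Grin2a. Grin2d, which gives very slow channels, had 10.5 and 5.66 RPKM in motor neurons of SMA mice and 6.51 and 4.71 in those of WT mice. White matter Grin2d stood at 0.344 and 0.568 RPKM in SMA and 1.11 and 0.344 RPKM in WT mice. All of their motor neuron libraries lay above all of their white matter libraries, and all 3 were called in both genotypes, with log2 differences in SMA of 3.61, 2.07 and 2.59 and in WT of 4.30, 2.32 and 1.96. In WT, Grin2d lost its call without motor neuron replicate 1 or WT white matter replicate 2 (limma adjusted p up to 0.0647). Grin2c, best known from the cerebellum, was below the filter, with 0.0650 and 1.14 RPKM in motor neurons of SMA mice and 0.0696 and 0.0659 in those of WT mice. White matter Grin2c stood at 0.00422 and 0 RPKM in SMA and 0 and 0 RPKM in WT mice, so that SMA motor neuron replicate 2 stood apart from the other 7 libraries. The ratio of Grin2a to Grin2b was 1.61 and 1.45 in SMA motor neurons and 1.95 and 1.89 in WT motor neurons, and it lay between 0.261 and 0.481 in the white matter libraries. The difference in this ratio between genotypes was not tested.

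Grin3a, whose subunit lowers the calcium flux of NMDA receptors and is abundant in the young nervous system, did not follow the other NMDA genes. It had 16.3 and 9.26 RPKM in motor neurons of SMA mice and 18.1 and 20.8 in those of WT mice. White matter Grin3a stood at 17.5 and 15.2 RPKM in SMA and 14.4 and 14.4 RPKM in WT mice. The tissues overlap in SMA, and in WT both motor neuron libraries lay slightly above both white matter libraries, with a difference of -0.38 ± 0.31 in SMA (limma adjusted p = 0.383) and 0.41 ± 0.31 in WT (adjusted p = 0.364). As a share of the summed RPKM of the 7 NMDA genes it made 7.68% and 4.56% in SMA motor neurons and 7.49% and 10.5% in WT ones, and 57.3% and 51.5% in SMA white matter and 55.9% and 69.7% in WT white matter. Grin1 made 63.0% and 76.1%, 66.4% and 63.4%, 27.7% and 29.1% and 18.8% and 15.2% of it in the same order. The leading NMDA RNA was thus Grin1 in every motor neuron library and Grin3a in every white matter library. Grin3b, the other member of that type, stayed under 1 RPKM in all libraries.

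None of the 5 kainate receptor genes was called between the tissues in either genotype. Grik5, whose subunit joins others to raise their affinity, had 37.9 and 42.8 RPKM in motor neurons of SMA mice and 33.9 and 30.5 in those of WT mice. White matter Grik5 stood at 34.4 and 27.5 RPKM in SMA and 22.4 and 20.9 RPKM in WT mice. Its levels in both motor neuron pairs lay above the white matter pair of the same genotype, by 0.38 ± 0.25 in SMA (limma adjusted p = 0.268) and 0.55 ± 0.25 in WT (adjusted p = 0.126). Grik2, which can form channels alone, had 20.4 and 9.40 RPKM in motor neurons of SMA mice and 17.6 and 19.0 in those of WT mice. White matter Grik2 stood at 17 and 22.3 RPKM in SMA and 16.6 and 22.1 RPKM in WT mice. SMA motor neuron replicate 2 was the lowest of the 8 libraries. Grik3, of the same type, had 9.59 and 13.3 RPKM in motor neurons of SMA mice and 12.7 and 6.41 in those of WT mice. White matter Grik3 stood at 17.3 and 12.8 RPKM in SMA and 12.5 and 8.35 RPKM in WT mice. For Grik2 and Grik3 the tissues overlap, and the 95% interval of the WT difference ran over -0.89 to 0.75 for Grik2 and -1.01 to 0.70 for Grik3. The direction of these small differences turned when 1 library was left out: without SMA motor neuron replicate 2 the SMA difference of Grik2 was 0.065, and it passed the test as lower without replicate 1 (-0.98, limma adjusted p = 0.0301). The summed RPKM of the 5 genes averaged 78.1 ± 4.85 in SMA motor neurons and 76.0 ± 4.05 in WT ones, and 74.7 ± 4.54 in SMA white matter and 59.4 ± 3.32 in WT white matter (SD, n = 2 each), whereas that of the NMDA genes averaged 208 ± 6.68, 220.4 ± 30.5, 30.0 ± 0.767 and 23.2 ± 3.65. Grik1 and Grik4 were likewise not called, with log2 differences of 0.66 and -0.31 in SMA and 0.98 and 0.75 in WT.

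The GABA-A genes are given by the chromosome cluster in which they lie. On chromosome 7, where Gabrg3 and Gabra5 lie next to each other in the reference annotation, both were higher in motor neurons in both genotypes. Gabra5, the subunit of tonic, extrasynaptic receptors in the hippocampus, had 67.3 and 50.8 RPKM in motor neurons of SMA mice and 82.3 and 72.5 in those of WT mice. White matter Gabra5 stood at 5.26 and 4.13 RPKM in SMA and 3.08 and 1.01 RPKM in WT mice. It was the most abundant GABA-A gene of WT motor neurons and differed between tissues by 3.39 ± 0.36 in SMA (limma adjusted p = 0.000258) and 4.77 ± 0.36 in WT (adjusted p = 3.40e-05). Gabrg3, a gamma subunit, had 17.1 and 8.95 RPKM in motor neurons of SMA mice and 17 and 12.4 in those of WT mice. White matter Gabrg3 stood at 4.52 and 2.64 RPKM in SMA and 3.51 and 3.57 RPKM in WT mice. Its difference was 1.58 ± 0.39 in SMA (adjusted p = 0.0134) and 1.77 ± 0.39 in WT (adjusted p = 0.00771). In SMA the call of Gabrg3 was lost without SMA white matter replicate 2 and in a fit of only the 4 libraries compared, and in WT without motor neuron replicate 1 or white matter replicate 2.

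The 4 genes of the cluster on chromosome 5, Gabrg1, Gabra2, Gabra4 and Gabrb1, were not called higher in motor neurons in either genotype. Gabra4, an extrasynaptic subunit in the forebrain, had 2.42 and 1.74 RPKM in motor neurons of SMA mice and 3.29 and 3.70 in those of WT mice. White matter Gabra4 stood at 7.68 and 7.47 RPKM in SMA and 9.04 and 9.79 RPKM in WT mice. Both motor neuron pairs lay below both white matter pairs, and it was the only receptor gene called lower in motor neurons, with a difference of -1.48 ± 0.31 in SMA (limma adjusted p = 0.00670) and -1.21 ± 0.31 in WT (adjusted p = 0.0168). The SMA call was made again under all 15 alternatives, whereas the WT call was lost without any of the 4 WT libraries (adjusted p 0.0724 to 0.109). Gabrg1, whose subunit is found in glia as well as neurons, had 5.19 and 0.600 RPKM in motor neurons of SMA mice and 2.73 and 2.42 in those of WT mice. White matter Gabrg1 stood at 11.5 and 8.07 RPKM in SMA and 4.53 and 12.4 RPKM in WT mice. Its lowest value was again in SMA motor neuron replicate 2. Gabra2, common at synapses onto motor neurons and interneurons, had 14.8 and 1.59 RPKM in motor neurons of SMA mice and 7.37 and 6.94 in those of WT mice. White matter Gabra2 stood at 16.5 and 9.41 RPKM in SMA and 8.18 and 9.85 RPKM in WT mice. For both, SMA motor neuron replicate 2 was far below the other motor neuron libraries, and neither was called, with differences of -1.76 ± 0.62 and -1.08 ± 0.68 in SMA (limma adjusted p = 0.0575 and 0.255) and -1.27 ± 0.62 and -0.29 ± 0.68 in WT (adjusted p = 0.160 and 0.789). Without SMA motor neuron replicate 1 both were called lower in SMA motor neurons (-2.74 and -2.38), and without replicate 2 the difference of Gabra2 was 0.22. In WT, Gabrg1 was called lower when either SMA motor neuron library was left out of the shared estimate of spread. Gabrb1 had 18.5 and 12.5 RPKM in motor neurons of SMA mice and 11.1 and 9.06 in those of WT mice. White matter Gabrb1 stood at 8.91 and 9.75 RPKM in SMA and 9.47 and 8.34 RPKM in WT mice. Both SMA motor neuron libraries lay above the other 6, which were close to each other, and the gene was not called.

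The other tested GABA-A genes lie on chromosomes 11 and X. Gabrq, which encodes the uncommon theta subunit, had 15.5 and 10.3 RPKM in motor neurons of SMA mice and 21.8 and 17.5 in those of WT mice. White matter Gabrq stood at 0.579 and 0.656 RPKM in SMA and 0.305 and 0.248 RPKM in WT mice. Every motor neuron library exceeded 10 RPKM and every white matter library was under 1, a difference of 3.08 ± 0.34 in SMA (limma adjusted p = 0.000297) and 4.01 ± 0.34 in WT (adjusted p = 5.51e-05). Gabra3, its neighbour on the X chromosome, had 18.8 and 2.95 RPKM in motor neurons of SMA mice and 13.1 and 10.9 in those of WT mice. White matter Gabra3 stood at 2.97 and 3.73 RPKM in SMA and 2.52 and 4.05 RPKM in WT mice. The motor neuron libraries lay above white matter apart from SMA replicate 2. It was not called in either genotype. Gabrb2 was between 0.824 and 4.30 RPKM in all 8 libraries and was not called. Gabra6, the alpha subunit of cerebellar granule cells, had 0.181 and 0 RPKM in motor neurons of SMA mice and 0.126 and 0.0212 in those of WT mice. White matter Gabra6 stood at 0.00848 and 0.0199 RPKM in SMA and 0 and 0 RPKM in WT mice. It was at or near 0 throughout.

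Glycine receptors are the main inhibitory channels of the cord next to GABA-A receptors; their alpha subunits bind glycine, and the beta subunit binds the scaffold gephyrin. Glra1, the adult alpha subunit, had 30.6 and 22.9 RPKM in motor neurons of SMA mice and 28.0 and 29.4 in those of WT mice. White matter Glra1 stood at 2.26 and 0.491 RPKM in SMA and 1.70 and 0.478 RPKM in WT mice. The genotypes overlap in motor neurons. Glra2, the fetal one, had 32.7 and 13.5 RPKM in motor neurons of SMA mice and 53.8 and 53.2 in those of WT mice. White matter Glra2 stood at 1.09 and 1.47 RPKM in SMA and 0.723 and 2.35 RPKM in WT mice. Both SMA motor neuron libraries lay below both WT ones. Glrb, the beta subunit, had 35.2 and 27.1 RPKM in motor neurons of SMA mice and 38.5 and 42.2 in those of WT mice. White matter Glrb stood at 8.65 and 9.34 RPKM in SMA and 7.13 and 6.71 RPKM in WT mice. For all 3, every motor neuron library lay well above every white matter library, and all were called in both genotypes, with differences in SMA of 3.64 ± 0.44, 3.28 ± 0.45 and 1.67 ± 0.27 (limma adjusted p = 0.000482, 0.000917 and 0.00176) and in WT of 3.89 ± 0.44, 4.50 ± 0.45 and 2.38 ± 0.27 (adjusted p = 0.000260, 0.000141 and 0.000228). Glra3, known from inhibition in the dorsal horn, had 8.34 and 6.54 RPKM in motor neurons of SMA mice and 1.91 and 4.51 in those of WT mice. White matter Glra3 stood at 2.11 and 0 RPKM in SMA and 0.0390 and 3.47 RPKM in WT mice. White matter libraries of the same genotype disagreed over Glra3, with 301 and 0 reads in SMA and 5 and 494 in WT. It was called in SMA (2.25 ± 0.72, limma adjusted p = 0.0404, and not called in 8 of 15 alternatives) and not in WT (0.89 ± 0.72, adjusted p = 0.394). The SMA call was lost without any motor neuron library of either genotype or without SMA white matter replicate 2, with a pseudocount of 0.1 RPKM and with no filter on low values, with adjusted p up to 0.259. Glra4 stayed under 1 RPKM in every library.

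The nicotinic genes that limma called higher in motor neurons were Chrna2, Chrna3, Chrna4 and Chrnb2 in both genotypes and Chrna7 and Chrnb4 in WT alone. Chrna4, which with Chrnb2 forms the main nicotinic receptor of the brain, had 72.3 and 68.9 RPKM in motor neurons of SMA mice and 70.6 and 64.0 in those of WT mice. White matter Chrna4 stood at 21.6 and 12.8 RPKM in SMA and 14.4 and 8.85 RPKM in WT mice. It made up 56% to 77.3% of the summed RPKM of the 16 nicotinic genes in each library. Chrnb2 had 9.87 and 8.72 RPKM in motor neurons of SMA mice and 11 and 11.4 in those of WT mice. White matter Chrnb2 stood at 0.958 and 1.71 RPKM in SMA and 1.15 and 0.830 RPKM in WT mice. It overlaps Adar on the other strand in an annotation of another build, so its reads may be mixed. Both were called in both genotypes, Chrna4 by 2.02 ± 0.32 in SMA and 2.47 ± 0.32 in WT (limma adjusted p = 0.00168 and 0.000494) and Chrnb2 by 2.16 ± 0.33 and 2.62 ± 0.33 (adjusted p = 0.00152 and 0.000452). Chrna3, the ganglionic alpha subunit, had 8.75 and 6.74 RPKM in motor neurons of SMA mice and 7.65 and 3.57 in those of WT mice. White matter Chrna3 stood at 0.814 and 0.290 RPKM in SMA and 1.1 and 0.334 RPKM in WT mice. Its motor neuron libraries all exceeded its white matter libraries, by 2.51 ± 0.43 in SMA (limma adjusted p = 0.00259) and 1.91 ± 0.43 in WT (adjusted p = 0.00914); in WT it was not called without motor neuron replicate 1 or white matter replicate 2. Chrnb4, its neighbour on chromosome 9, was not called in SMA (1.15 ± 0.40, limma adjusted p = 0.0544) and was called in WT (1.68 ± 0.40, adjusted p = 0.0121), but not without WT motor neuron replicate 1 or either WT white matter library. Chrna7, whose subunit forms calcium-permeable receptors on its own, had 6.59 and 5.18 RPKM in motor neurons of SMA mice and 9.26 and 13.9 in those of WT mice. White matter Chrna7 stood at 1.59 and 3.11 RPKM in SMA and 1.67 and 1.53 RPKM in WT mice. All of its motor neuron libraries lay above all of its white matter libraries; it was not called in SMA (1.07 ± 0.37, limma adjusted p = 0.0530) and was called in WT (2.25 ± 0.37, adjusted p = 0.00180), also under all 15 alternatives. Chrna5, next to Chrna3 on chromosome 9, had 1.34 and 1.17 RPKM in motor neurons of SMA mice and 2.56 and 2.08 in those of WT mice. White matter Chrna5 stood at 1.02 and 1.56 RPKM in SMA and 1.53 and 2.39 RPKM in WT mice. It was not called, and the tissues overlap in both genotypes. Chrna2, a marker of Renshaw cells, the interneurons that inhibit motor neurons, was low in motor neurons, at 2.04 and 1.57 RPKM in SMA and 0.682 and 2.53 in WT, and its calls (1.25 ± 0.40 in SMA, 1.28 ± 0.40 in WT, limma adjusted p = 0.0412 and 0.0401) were made again under only 7 of 15 alternatives in SMA and 8 of 14 in WT. The SMA call was lost without either SMA motor neuron library or any of the 4 white matter libraries (adjusted p up to 0.169), the WT call without WT motor neuron replicate 2 or any white matter library, and both with no filter on low values (up to 0.277). Chrne was not called in either genotype (-0.95 ± 0.35 in SMA and 1.01 ± 0.35 in WT, limma adjusted p = 0.0662 and 0.0575), but was called lower in SMA motor neurons with a pseudocount of 0.1 RPKM (-3.25), with no filter on low values (-0.95) and by voom (-6.58).

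**Figure D3:**
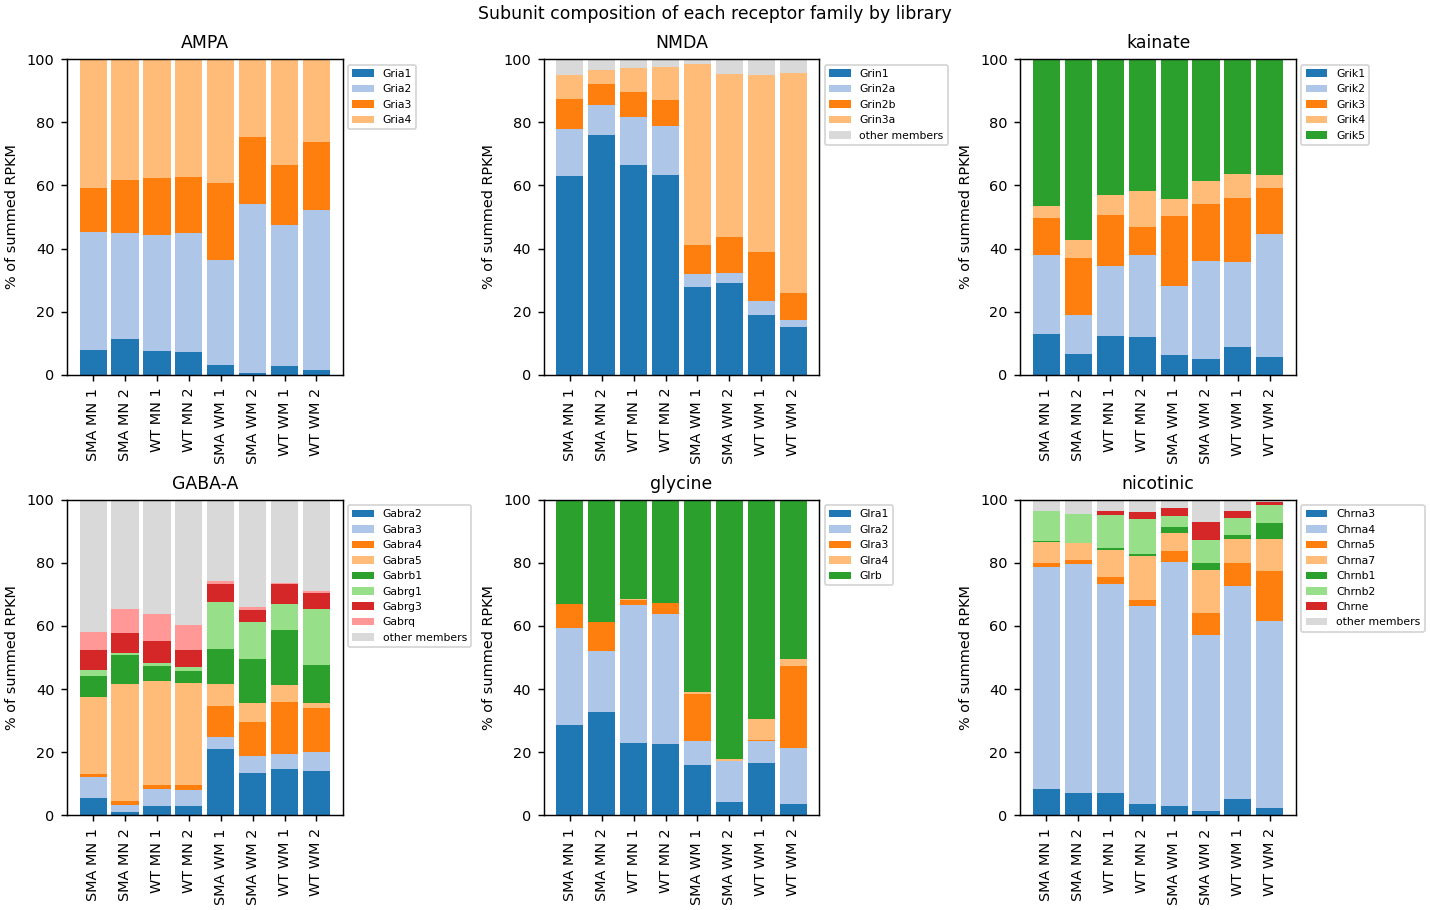
Share of each gene in the summed RPKM of its receptor family (vertical axis, percent) in the 8 libraries, SMA before WT and motor neurons before white matter; other members pool the genes under 5% in all libraries and those not described individually. Grin1 fills most of the NMDA bar in motor neurons and Grin3a most of it in white matter, Gabra5 gives way to Gabra2, Gabra4 and Gabrg1 in white matter, and Chrna4 leads the nicotinic bar everywhere.

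No receptor gene passed the test between SMA and WT motor neurons over all genes. limma called 0 of the 38 receptor genes and 0% of all 13948 genes, where 3 receptor genes and 609 genes (4.37%) had an unadjusted p under 0.05; limma with voom on recovered reads called 1 gene and no receptor gene. The estimate was positive for 10 receptor genes and negative for 28, with a median of -0.28 beside -0.050 for all genes, 44.2% of which were positive. Both SMA libraries lay above both WT libraries for 3 receptor genes and below for 12 (12.7% and 15.5% of all genes). SMA replicate 2 was the lowest of the 4 motor neuron libraries for 25 of the 38 receptor genes (65.8%), against 44.9% of all genes, and SMA replicate 1 was the highest for 20 (52.6%), against 41.1% of all genes. Without SMA replicate 2 the estimates were positive for 23 and negative for 15, with a median of 0.15 beside 0.11 for all genes. Without SMA replicate 1 the median was -0.63, and 107 of all genes were called lower and 15 higher. The preponderance of negative estimates therefore rests on SMA replicate 2. That library also had the fewest genes at 1 RPKM, 11539. Its share of summed RPKM in the ribosomal RNA gene Rn45s was 33.4%, against 22.4% in SMA replicate 1 and 26.2% and 29.5% in WT motor neurons. The part of these traits in the receptor values was not tested.

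**Figure D4:**
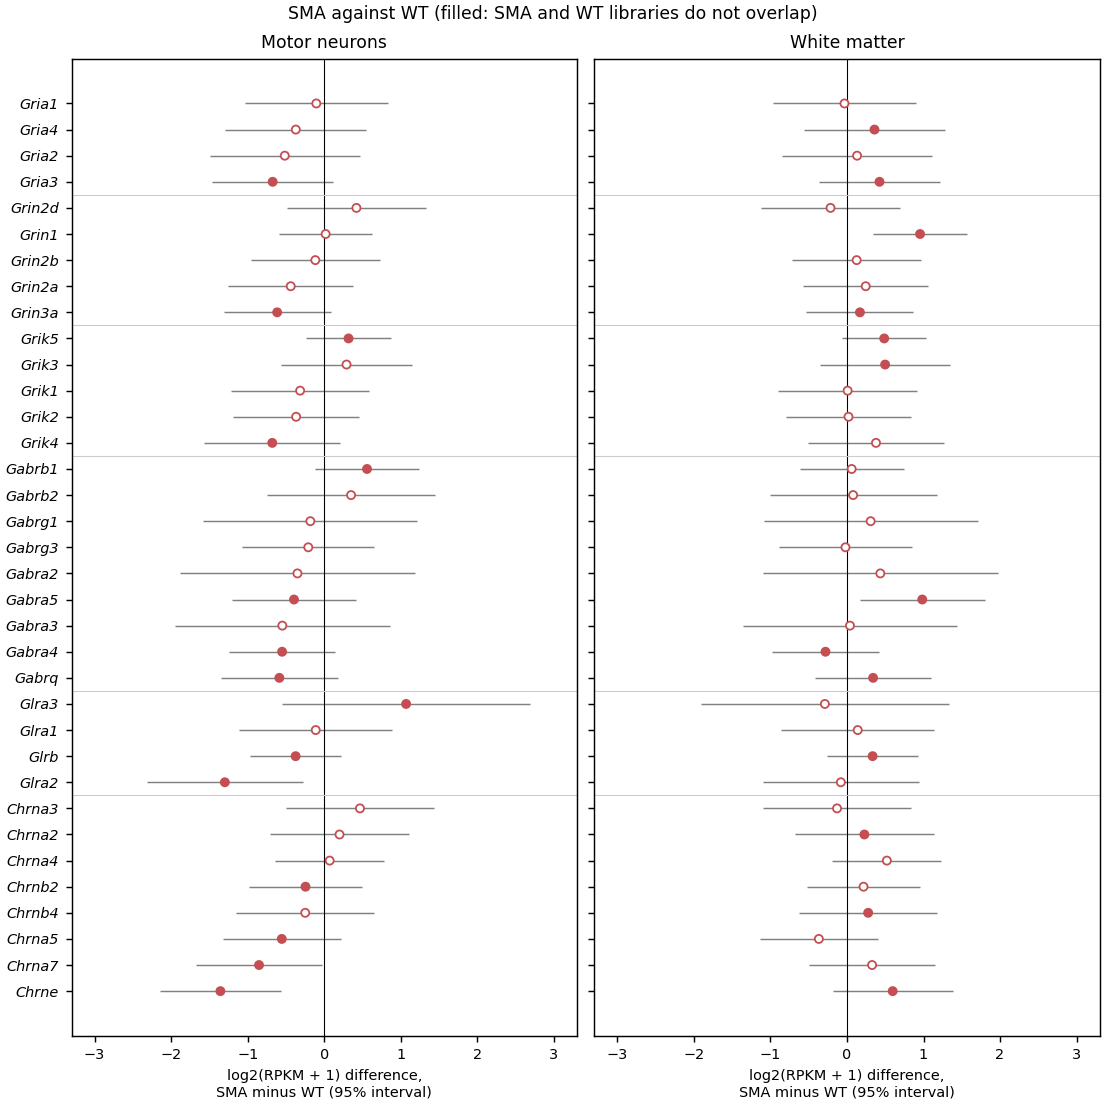
Difference in log2(RPKM + 1), SMA minus WT, in motor neurons (left) and white matter (right) for 35 tested receptor genes in family order, with 95% intervals from limma (2 libraries a group). Filled points mark genes whose SMA and WT libraries do not overlap, 15 in motor neurons and 13 in white matter, where 28.2% and 43.9% of all genes do so; no gene had an adjusted p under 0.05.

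Chrne had the lowest p of the receptor genes in this comparison. It encodes the epsilon subunit, which replaces the fetal subunit of Chrng in the acetylcholine receptor of adult muscle. Chrne had 0 and 0.0153 RPKM in SMA motor neurons, against 1.25 and 1.96 RPKM in WT motor neurons, and 0.669 and 1.27 RPKM in SMA white matter, against 0.470 and 0.123 RPKM in WT white matter. Both SMA motor neuron libraries were at or next to 0, all other libraries were above them, and WT motor neuron replicate 2 was the highest of all. In reads, SMA motor neurons had 0 and 2, against 181 and 242 in WT motor neurons; SMA white matter had 103 and 207, against 65 and 19 in WT white matter. The pooled rate in SMA relative to WT motor neurons was 0.00486 (exact 95% interval 0.000586 to 0.0177, counting error only). On the log2(RPKM + 1) scale, which understates changes of low genes, the difference was -1.36 ± 0.35 (limma adjusted p = 0.669), and the adjusted p ranged from 0.161 to 1 over 15 alternatives. Of the 17408 genes with recovered reads, 7 had at least 100 reads in both WT motor neuron libraries and no more than 2 in both SMA ones, and 4 had the reverse. In white matter, where both SMA libraries lay above both WT libraries, its difference was 0.60 ± 0.35 (adjusted p = 0.752), and the SMA effect in motor neurons minus that in white matter was -1.95 ± 0.50 (limma adjusted p = 0.883).

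The other 4 subunit genes of the muscle receptor were below the filter. Chrna1, which binds acetylcholine, had 0.385 and 0.272 RPKM in motor neurons of SMA mice and 0.0512 and 0.0782 in those of WT mice. White matter Chrna1 stood at 0.135 and 0.324 RPKM in SMA and 0.0510 and 0.0410 RPKM in WT mice. In each tissue both SMA libraries lay above both WT libraries. Chrnb1 had 0.467 and 0 RPKM in motor neurons of SMA mice and 0.654 and 0.834 in those of WT mice. White matter Chrnb1 stood at 0.519 and 0.525 RPKM in SMA and 0.246 and 0.765 RPKM in WT mice. Both genes stayed under 1 RPKM in all libraries. Chrnd was at 0 in all motor neuron libraries and had 0 and 0.581 RPKM in SMA white matter, against 0.146 and 0 RPKM in WT white matter. Chrng had 0 and 0 RPKM in SMA motor neurons, against 0.0400 and 0 RPKM in WT motor neurons, and 0.156 and 0.395 RPKM in SMA white matter, against 0.563 and 0.0807 RPKM in WT white matter. No motor neuron library held RNA of the whole set of 5 subunits. The 9 skeletal muscle markers summed to 5.40 and 4.83 RPKM in SMA motor neurons and 4.04 and 3.60 in WT ones, with 24.9 and 316 in SMA white matter and 25.1 and 3.3 in WT white matter. SMA white matter replicate 2, with the highest muscle sum, was also highest for Chrnd and was the highest white matter library for Chrna1 and Chrne. It was not the highest for the other 2 subunits. Among white matter libraries Chrng was highest in WT replicate 1, and Chrnb1 in WT replicate 2, which had the lowest muscle sum. The part of muscle RNA in these values was not tested.

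Among the glycine receptor genes of motor neurons, Glra2 was lower in both SMA libraries than in both WT libraries and Glra3 higher. Glra2 had 32.7 and 13.5 RPKM in SMA motor neurons, against 53.8 and 53.2 RPKM in WT motor neurons. The WT libraries were nearly equal and the SMA libraries far apart, with a difference of -1.30 ± 0.45 (limma adjusted p = 0.963, range 0.0697 to 1 over 15 alternatives). Glra1 had 30.6 and 22.9 RPKM in SMA motor neurons, against 28.0 and 29.4 RPKM in WT motor neurons, and these ranges overlap. The ratio of Glra2 to Glra1 was 1.07 and 0.592 in SMA motor neurons and 1.92 and 1.81 in WT motor neurons, so the groups do not overlap; the ratio was not tested. Glra3 had 8.34 and 6.54 RPKM in SMA motor neurons, against 1.91 and 4.51 RPKM in WT motor neurons, a difference of 1.07 ± 0.72 (adjusted p = 1). Glrb had 35.2 and 27.1 RPKM in SMA motor neurons, against 38.5 and 42.2 RPKM in WT motor neurons, both SMA libraries lying below both WT libraries (-0.37 ± 0.27, limma adjusted p = 1). Glra2 thus made up 30.6% and 19.3% of the glycine receptor RNA in SMA motor neurons and 43.9% and 41.1% in WT motor neurons.

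Chrna7 had 6.59 and 5.18 RPKM in SMA motor neurons, against 9.26 and 13.9 RPKM in WT motor neurons. The groups do not overlap, and the difference was -0.85 ± 0.37 (limma adjusted p = 1). Grin3a had 16.3 and 9.26 RPKM in SMA motor neurons, against 18.1 and 20.8 RPKM in WT motor neurons, again without overlap (-0.62 ± 0.31, adjusted p = 1). Gabrb1 had 18.5 and 12.5 RPKM in SMA motor neurons, against 11.1 and 9.06 RPKM in WT motor neurons, with both SMA libraries above both WT libraries (0.56 ± 0.30, limma adjusted p = 1). Grik5 had 37.9 and 42.8 RPKM in SMA motor neurons, against 33.9 and 30.5 RPKM in WT motor neurons, also without overlap (0.32 ± 0.25, adjusted p = 1). Chrna3 had 8.75 and 6.74 RPKM in SMA motor neurons, against 7.65 and 3.57 RPKM in WT motor neurons, with overlapping ranges (0.47 ± 0.43, limma adjusted p = 1). None of these passed the test in any of the 15 alternatives. The most abundant gene, Grin1, differed by 0.02 ± 0.27, with a 95% interval of -0.59 to 0.63 on the log2 scale, and Chrna4 by 0.07 ± 0.32, with an interval of -0.64 to 0.78. For both, a log2 change of 1 in either direction lay outside the interval.

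**Figure D5:**
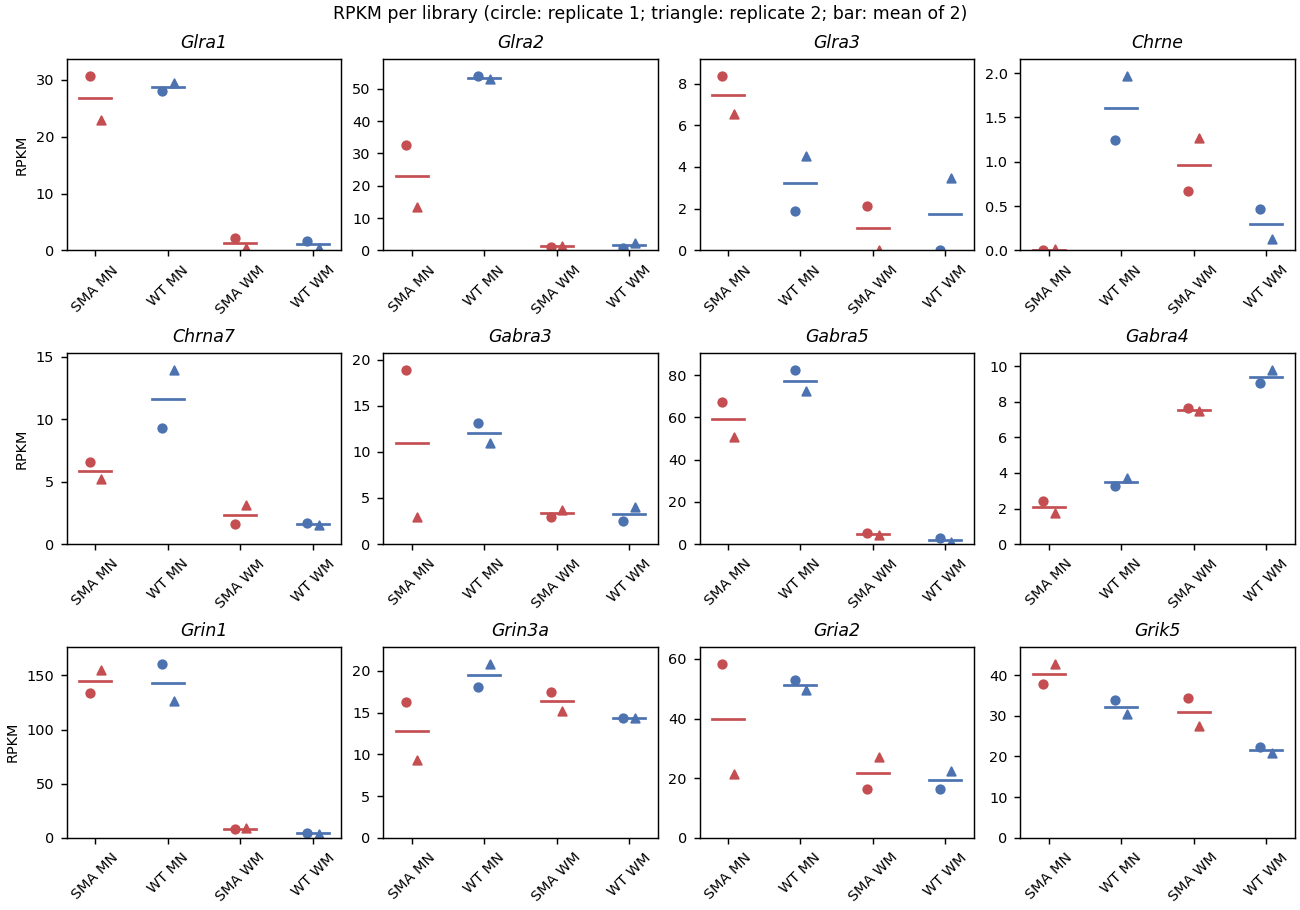
RPKM of 12 receptor genes in each library (circles replicate 1, triangles replicate 2; bars the mean of 2 libraries), with SMA in red and WT in blue, motor neurons left of white matter; vertical axes start at 0. Glra2 and Chrna7 sit lower and Glra3 higher in both SMA motor neuron libraries than in WT, Chrne is at or next to 0 in them, and the SMA motor neuron values of Gabra3 and Gria2 are far apart.

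In the motor neuron captures the marker sum of motor neurons lay lower in both SMA libraries than in both WT libraries, and those of interneurons, microglia, myelinating oligodendrocytes and skeletal muscle lay higher. The sums of astrocyte and oligodendrocyte precursor markers overlapped between genotypes. All 10 motor neuron markers had negative SMA estimates (median -0.40) and all 11 tested interneuron markers positive ones (median 0.48), although 0 of either list were called. The interneuron markers summed to 259.5 and 386 RPKM in SMA motor neurons, against 225 and 218 RPKM in WT motor neurons, and the 10 microglia markers to 94.6 and 84.2 RPKM in SMA, against 29.8 and 36.3 RPKM in WT. The 10 astrocyte markers summed to 2279.7 and 833 RPKM in SMA motor neurons, against 1705 and 1191 RPKM in WT motor neurons. Fabp7 alone made 1431 and 129 RPKM of this in SMA and 935 and 486 in WT, so the low sum of SMA replicate 2 rests largely on that gene. Of the 10 astrocyte markers, 7 had positive SMA estimates and 3 negative ones (median 0.11). The part of these cell types in the receptor values was not tested.

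In white matter limma likewise called 0 of the 38 receptor genes between SMA and WT and 0% of all genes, where 2 receptor genes and 880 of all genes (6.31%) had an unadjusted p under 0.05; limma with voom called 1 gene and no receptor gene. The estimate was positive for 30 receptor genes and negative for 8, with a median of 0.22, but the median over all genes was 0.27 and 80.0% of all genes were positive. After median-of-ratios scaling the median of all genes was 0.000369, that of the receptor genes was 0.011, and 20 of these were positive and 18 negative. Without SMA white matter replicate 1 the receptor median was 0.14, beside 0.22 for all genes. Both SMA libraries lay above both WT libraries for 13 receptor genes and below for 1, Gabra4, where 39.7% and 4.17% of all genes did.

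Grin1 had 8.47 and 8.59 RPKM in SMA white matter, against 4.86 and 3.13 RPKM in WT white matter, a difference of 0.96 ± 0.27 (limma adjusted p = 0.727). Gabra5 had 5.26 and 4.13 RPKM in SMA white matter, against 3.08 and 1.01 RPKM in WT white matter, a difference of 0.98 ± 0.36 (adjusted p = 0.741). Both had SMA libraries above WT libraries, and both are genes at far higher levels in motor neurons; the motor neuron markers summed to 20.5 and 10.9 RPKM in SMA white matter, against 11.6 and 7.98 in WT white matter, and the part of motor neuron RNA was not tested. Grik5 had 34.4 and 27.5 RPKM in SMA white matter, against 22.4 and 20.9 RPKM in WT white matter, again with SMA above WT (0.49 ± 0.25, limma adjusted p = 0.741). On the lower side, Gabra4 had 7.68 and 7.47 RPKM in SMA white matter, against 9.04 and 9.79 RPKM in WT white matter, without overlap (-0.28 ± 0.31, adjusted p = 0.856). Chrna5, Grin2d and Glra3 overlapped between genotypes, with differences of -0.37 ± 0.34, -0.21 ± 0.41 and -0.29 ± 0.72 (limma adjusted p = 0.827, 0.920 and 0.942). The difference of Glra3 turned to 0.53 without SMA replicate 2 and to 0.76 without WT replicate 2, and that of Grin2d to 0.11 without WT replicate 1.

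The SMA effect in motor neurons minus that in white matter, tested as an interaction, passed for 0 of the 38 receptor genes and 0% of all genes; 4 receptor genes and 693 of all genes (4.97%) had an unadjusted p under 0.05, and limma with voom called 0 genes. After Chrne the lowest p-values belonged to Gabra5 (-1.38 ± 0.51, limma adjusted p = 0.883) and Grin1 (-0.94 ± 0.38, adjusted p = 0.883). The interaction estimates had a median of -0.48 over the receptor genes beside -0.33 over all genes, and after median-of-ratios scaling these were -0.23 and -0.033. The receptor median rests largely on 1 library: it was -0.055 without SMA motor neuron replicate 2, with 18 estimates positive and 20 negative, and -0.85 without SMA motor neuron replicate 1, with 5 positive and 33 negative as in the full set.

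Proteins that assemble, anchor or supply these receptors were examined through 4 lists of partner genes, 64 of whose 68 genes in the files were tested. Chat, Slc18a3 and Slc5a7 in these lists are also among the motor neuron markers, and Slc17a6, Slc32a1, Gad1, Gad2 and Slc6a5 among the interneuron markers. The partner counts are therefore not separate from those markers. In SMA, 28 of the 64 were higher in motor neurons than in white matter and 5 lower, and in WT 37 were higher and 3 lower, against the shares of all genes given above. The SMA counts fell to 18 and 3 without SMA white matter replicate 2. The WT counts fell to 23 higher and 1 lower without WT motor neuron replicate 1 and to 21 higher and 1 lower without WT white matter replicate 2, and were 26 and 0 without WT motor neuron replicate 2. Of 31 glutamate receptor auxiliary and scaffold genes, 11 were higher and 1 lower (Homer3) in SMA motor neurons, and 17 were higher in WT ones. They included Cacng5, which encodes an AMPA receptor auxiliary subunit, at 50.6 and 23.7 RPKM in SMA motor neurons and 29.5 and 22.9 in WT ones, with 0.891 and 0.595 in SMA white matter and 0.551 and 0.318 in WT white matter. The gap between tissues was 4.36 ± 0.40 in SMA (limma adjusted p = 0.000121) and 4.24 ± 0.40 in WT (adjusted p = 9.36e-05). Adarb1, the enzyme that edits Gria2 RNA, was not called in SMA (0.59 ± 0.38, limma adjusted p = 0.264) and was called in WT (1.35 ± 0.38, adjusted p = 0.0247).

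Of the 12 tested genes for inhibitory receptor scaffolds and chloride transport, 5 were higher and 1 lower in SMA motor neurons and 7 were higher and 1 lower in WT ones. Slc12a5, which exports chloride from neurons, had 68.8 and 47.4 RPKM in SMA motor neurons and 86.3 and 51.0 in WT ones, with 4.04 and 3.09 in SMA white matter and 3.57 and 0.577 in WT white matter. Slc12a2, which imports chloride, had 5.0 and 2.27 RPKM, 4.94 and 5.41, 21.4 and 19.0 and 15.5 and 19.6 in the same groups and was the gene called lower. The exporter thus stood higher in motor neurons (3.68 ± 0.49 in SMA and 4.65 ± 0.49 in WT, limma adjusted p = 0.000738 and 0.000172) and the importer lower (-2.26 ± 0.35 and -1.58 ± 0.35, adjusted p = 0.00157 and 0.00856). Gephyrin (Gphn), the scaffold of glycine and many GABA-A receptors, was not called in SMA (0.38 ± 0.30, limma adjusted p = 0.359) and was called in WT (1.05 ± 0.30, adjusted p = 0.0270).

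Of 8 nicotinic receptor assembly and clustering genes, 5 were higher and 1 (Lrp4) lower in motor neurons in both genotypes. Lynx1, which encodes a protein that binds and damps nicotinic receptors, had 153 and 140.2 RPKM in SMA motor neurons and 154 and 137 in WT ones, with 12.6 and 8.06 in SMA white matter and 7.03 and 9.79 in WT white matter. Its difference was 3.73 ± 0.28 in SMA (limma adjusted p = 5.58e-05) and 3.97 ± 0.28 in WT (adjusted p = 2.21e-05). Musk and Rapsn, which cluster receptors at the muscle endplate, were below the filter. Of 13 transmitter synthesis and transport genes, 7 were higher and 2 lower in SMA motor neurons, and 8 were higher and 1 lower in WT ones; the GABA transporter Slc6a11 was among those lower in SMA. No partner gene was called between SMA and WT by limma in motor neurons or white matter, nor in the interaction.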

How the data were processed

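One library each of 8 laser-captured samples was read from the deposited tables, in which the authors give RPKM per gene; TopHat, bedtools, DESeq and the mm9 genome are named, without role or version, per the submitters' processing notes. The sources used here do not give the gene annotation, counting rule or use of strand. Double-stranded cDNA was made with the Ovation RNA-seq System V2, per the labels' protocols; reads are not independent molecules, so intervals cover counting error only. Read totals were 77500000 to 103000000 per library, and 2 libraries a group limit the precision. Members were matched by symbol alone, but the symbol rule and the gene lists were set with earlier results of these data known. Genes with at least 1 RPKM in at least 2 libraries (13948 of 23278) were fitted with limma 3.58.1 (R 4.3.3; trended variance, 4 group means over 8 libraries, two-sided) as log2(RPKM + 1), with Benjamini-Hochberg adjustment over all genes and a threshold of 0.05; a log2 difference on this scale understates the change of low genes. Values in every library were given for the 2 leading genes of each family in WT motor neurons, for the 4 (SMA against WT) or 5 (tissues) smallest p on each side and the 3 smallest of the interaction, and for fixed groups of subunits by role; others were added after their values were seen. Some genes are not reported here individually and are not drawn, but counts and sums include them. Whole reads were recovered from the steps between RPKM values for 17408 of 17431 genes above 0 in at least 3 libraries (99.9%), within 0.02 reads of a whole number. The fit and the recovery were tested on simulated data. For SMA against WT motor neurons, 26 of 335 log2 changes of 1 entered into these data were found. Of changes of 2, 261 of 335 were found, and of changes of 4, 330 of 330. For SMA against WT white matter these were 25 of 335, 250 of 335 and 330 of 330. The recovery gave the right gene length for 96.4% of 993 genes. Alternatives were another pseudocount, no filter, 2 scalings, a replicate block, each library left out, only the 4 compared libraries, and, chosen after seeing the data, limma voom on recovered reads. Overlapping genes were read from GENCODE vM21, a different build, as names only. Besides Grin1 and Chrnb2, members with a gene overlapping on the other strand included Gabra5, Glra1, Grin2b and Grin2d, whose reads may also be mixed.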

Additional observations from a re-analysis of the deposited data

How the results depend on the processing

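Fits with a replicate block called 16 receptor genes higher and 1 lower in SMA motor neurons against white matter, 22 and 1 in WT ones, and 0 in the other comparisons; Chrna2 and Glra3 in SMA and Gria2 in WT lost their calls there; the labels give no pairing, and no deviations of same-numbered libraries had a correlation over 0.1 (-0.343 to 0.0805). The numbers of receptor genes called with 1 library left out ranged from 0 to 1 for SMA against WT motor neurons (1 without SMA motor neuron replicate 1), were 0 in white matter and in the interaction, and ranged from 15 to 23 for the tissues in SMA and from 14 to 27 in WT. For the partner genes they were 0 in the 3 SMA comparisons, 21 to 35 for the tissues in SMA and 22 to 45 in WT. A group left with 1 library was assumed to vary like the others. With 1 library left out, differences that changed sign ran from -0.54 to 0.11 for Grin2d (0.11 without WT white matter replicate 1) and from -1.34 to 0.76 for Glra3 (0.53 without SMA and 0.76 without WT white matter replicate 2) in SMA against WT white matter. Between the tissues in WT they ran from -0.60 to 0.29 for Grik3 (0.29 without WT motor neuron replicate 2, 0.11 without WT white matter replicate 1) and from -0.26 to 0.13 for Grik2 (0.13 without WT white matter replicate 2). In SMA they ran from -2.38 to 0.22 for Gabra2 and from -0.98 to 0.065 for Grik2, with both positive values found without SMA motor neuron replicate 2. The cause was not tested. With no filter on low values the receptor medians were 0.66 in SMA and 0.94 in WT between tissues, -0.18 for SMA against WT motor neurons and -0.26 for the interaction. Of the calls between tissues, refitted under each alternative, 28 of 285 in SMA and 37 of 344 in WT were lost. Of the values of the genes named by the smallest p in each comparison, 557 kept direction and side of the threshold, 10 passed it newly, 4 lost it and 8 changed sign; of the counts, 141 stayed within 1.5 times and 7 did not. A fit of only the 4 compared libraries could not be had for the interaction. Low read counts limit the precision for low genes, such as Chrne with 2 reads in SMA motor neurons. Read totals there were 81700000 and 82400000, against 91000000 and 77500000 in WT motor neurons, where Chrne had 181 and 242 reads.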
